A study of Rattus norvegicus with 18 samples.

Results

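NF-kB subunits, their inhibitors and the adhesion molecules Icam1 and Vcam1 were followed at the RNA level in the rat retina after damaging light, with and without red-light or saffron pretreatment. In retinas exposed to light alone, Icam1 RNA was 5.25-fold, Nfkb2 RNA 3.19-fold and Nfkbiz RNA 2.22-fold above the control level, and these 3 genes passed the test. Light after saffron raised Icam1 alone past both limits, by 3.15-fold. Light after red light raised no measured member past them, and Vcam1 passed in none of the 11 comparisons made. Of all probe sets, 0.466% rose past the limits with light alone, 0.4% with light after saffron and 0.106% with light after red light. No member passed where a pretreated light group was compared with light alone, or where the light responses were compared. Every retina given red light and then bright light had more Icam1 RNA than every retina given red light only. The genes were chosen by name: Nfkb1, Nfkb2, Rel and Rela (subunits), Nfkbia, Nfkbiz and Bcl3 (inhibitors and nuclear relatives of inhibitors), Icam1 and Vcam1 (adhesion targets). A probe set carrying the gene's symbol was found for 8 of the 9 members, 1 probe set each, among 14506 genes so named on 29214 probe sets. Rel, the subunit c-Rel, had none under its symbol and was not analysed here. The 8 measured members all lay above the 25th percentile of probe sets by mean level.

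The samples were retinas of adult Sprague Dawley rats of 80 to 120 days reared in dim cyclic light of 5 lux, 3 arrays in each of 6 groups, and every animal also received the plain plant feed that carried the saffron. Control animals had no treatment. Saffron animals received 1 mg/kg of saffron a day for 3 weeks, PBM (photobiomodulation) animals red light for 3 min a day on 5 days, and LD (light damage) animals 24 h of bright light. SafLD and PBMLD animals received the saffron or red-light course and then the bright light. The labels place collection 24 h after the last red-light or saffron dose, also where bright light followed. The bright light is given as 1000 lux in the description of the LD samples and as 100 lux in their source name. For SafLD and PBMLD both fields give 1000 lux, so only the LD labels conflict. The labels give no sex for any array. These are whole retinas, so fewer cells of a type and less RNA per cell cannot be told apart. Values are log2 RMA intensities, and each group's replicates 1, 2 and 3 are named in that order below. A member is said to have passed, risen or fallen where the limma test gave a Benjamini-Hochberg adjusted p under 0.05 over all 29214 probe sets together with a change of more than 2-fold. Levels of different probe sets are not set against each other, since probes differ in brightness.

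NF-kB is a family of dimeric transcription factors. In a resting cell an inhibitor such as IkappaB-alpha, the product of Nfkbia, holds the dimer in the cytoplasm. Signals from cytokine and pattern-recognition receptors activate a kinase complex that marks the inhibitor for destruction, and the freed dimer enters the nucleus and binds kappaB sites near its target genes. Several targets encode NF-kB subunits and inhibitors themselves, so the pathway feeds back on its own parts. Icam1 and Vcam1 encode surface molecules that leukocytes grip through integrins when they leave the blood. In the retina ICAM-1 is known from vascular endothelium, Müller cells and the pigment epithelium. Release of NF-kB from its inhibitor is a protein event, which RNA levels do not measure.

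The members' promoters are shown because kappaB sites are the known point of contact between these genes and the factor. RefSeq promoter windows of the rat assembly GRCr8, 250 bases before to 50 bases after each start site, were found for all 9 members. A 10-letter kappaB consensus was searched on both strands. It was present in 7 of the 9 windows, against 2515 of all 33469 promoter windows (7.51%), and among genes measured on the array it was present in 1129 of 12536 windows (9.01%). A 9-letter form, GGAAATTCC, which was searched after the consensus result was known, was present in 4 of the 9 windows and in 111 of the 33469 (0.332%). In Nfkb1, Nfkbia and Nfkbiz that form overlaps the consensus match. Icam1 held only the 9-letter form and Rela held neither. These are matches of letters, and binding was not measured. The members were chosen as known NF-kB genes and targets, so the shares are no test of enrichment. The stretches below surround one match in each of the 7 measured genes that have one, written 5′ to 3′ along the gene, and the capitals mark the match.
Nfkb1: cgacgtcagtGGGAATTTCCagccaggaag
Nfkb2: tggtattttcGGGACTTTCCtaagagcact
Nfkbia: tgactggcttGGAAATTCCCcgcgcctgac
Nfkbiz: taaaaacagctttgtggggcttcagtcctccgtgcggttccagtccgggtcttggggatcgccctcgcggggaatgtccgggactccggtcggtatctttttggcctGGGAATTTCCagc
Bcl3: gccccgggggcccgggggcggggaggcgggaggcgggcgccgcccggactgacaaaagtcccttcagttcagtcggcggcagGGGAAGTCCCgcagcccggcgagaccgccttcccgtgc
Icam1: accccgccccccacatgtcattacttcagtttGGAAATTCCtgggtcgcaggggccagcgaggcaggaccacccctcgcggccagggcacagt
Vcam1: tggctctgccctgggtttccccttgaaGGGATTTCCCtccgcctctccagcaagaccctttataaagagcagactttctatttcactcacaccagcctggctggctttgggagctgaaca

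In GRCr8 these stretches are chr2:226805440-226805469 on the minus strand for Nfkb1, chr1:255108344-255108373 on the plus strand for Nfkb2 and chr6:78597084-78597113 on the minus strand for Nfkbia. The Nfkbiz stretch is chr11:58251601-58251720 on the plus strand and the Bcl3 stretch chr1:88613556-88613675 on the minus strand. The Icam1 stretch is chr8:27829595-27829687 on the plus strand and the Vcam1 stretch chr2:206742784-206742903 on the minus strand. Counted from the start site of the table, the match lies at +4 to +13 in Nfkb1, at -20 to -11 in Nfkb2, at -31 to -22 in Nfkbia and at -13 to -4 in Nfkbiz. It lies at -38 to -29 in Bcl3, at -93 to -84 in Vcam1 and, for the 9-letter form, at -218 to -210 in Icam1. The start site that the table uses lies inside the RefSeq gene by 435 bases for Nfkb1, 2364 for Nfkb2, 235 for Nfkbia and 157 for Icam1, so other transcripts of these genes begin further upstream.

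**Figure D1:**
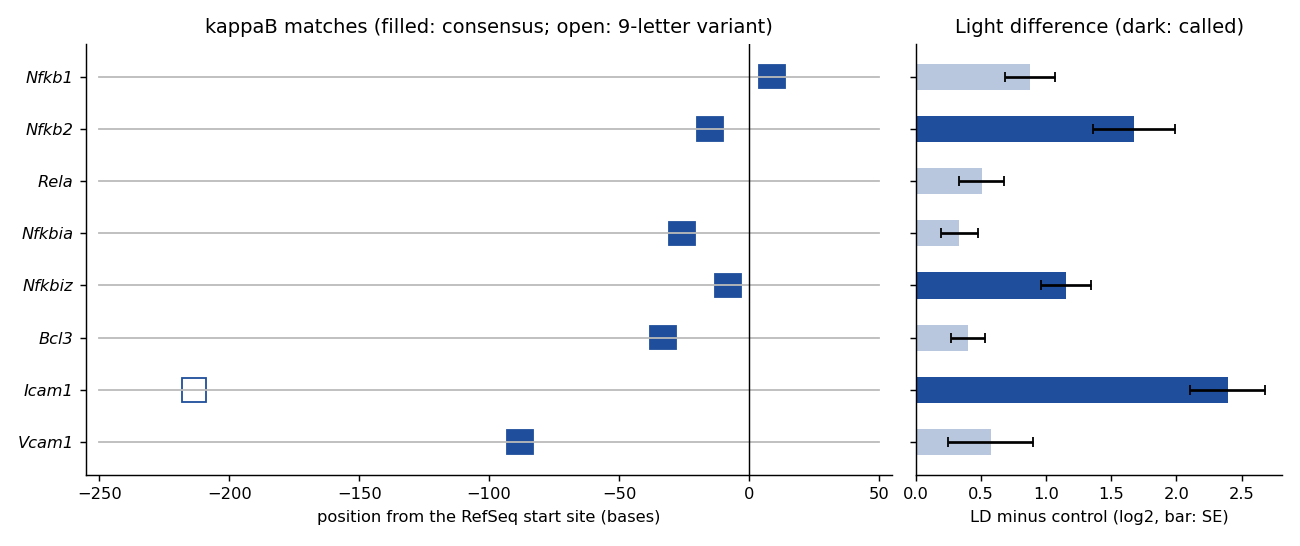
Left, kappaB matches in the promoter windows of the 8 measured members by position in bases from the RefSeq start site, with filled boxes for the 10-letter consensus and an open box for the 9-letter form without a consensus match; right, the LD minus control difference in log2 intensity of the same genes, with its SE and dark bars for genes that passed. A consensus match appears in 6 of the 8 windows, Icam1 has only the 9-letter form at -218 and the largest difference (2.39), and the Rela window is empty.

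In the control retinas Nfkb1, which encodes p105 and its product p50, measured 7.71, 7.88 and 7.59. In the LD retinas it measured 8.31, 8.97 and 8.51, so every LD array lay above every control array. The difference was 0.87 ± 0.19 on the log2 scale, or 1.83-fold, with an adjusted p of 0.0354. Here and below ± is the SE of the limma fit, which pools the spread of all 6 groups (n = 3 per group). Nfkb1 therefore stayed under the 2-fold limit, and without each array in turn its adjusted p ran from 0.0151 to 0.173; only without LD 1 was it past both limits, at 1.02. In SafLD the values were 8.16, 8.65 and 8.79 against 7.55, 7.47 and 7.94 in saffron, with no overlap. That difference was 0.89 ± 0.19 (1.85-fold, adjusted p = 0.0209), also under 2-fold, and it passed without SafLD 1 (1.07, adjusted p = 0.00758) or saffron 3 (1.03, adjusted p = 0.0158). PBMLD measured 7.90, 8.41 and 8.11 against 7.83, 7.71 and 7.72 in PBM. These did not overlap either, but the difference of 0.39 ± 0.19 had an adjusted p of 0.649. The 9 arrays without bright light (7.47 to 7.94) and the 9 with it (7.90 to 8.97) met only at their edges.

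Nfkb2 encodes p100, an inhibitor-like precursor that is cut to the subunit p52 of the non-canonical pathway. It measured 5.71, 5.82 and 6.11 in control and 6.88, 7.71 and 8.08 in LD. The LD arrays all lay above the control arrays and spread over more than 1 log2 unit. Nfkb2 rose by 1.67 ± 0.32 (95% interval 1.01 to 2.34, 3.19-fold, adjusted p = 0.0116). Leaving out LD 3, LD 2, control 1 or control 2 took the adjusted p to 0.0959, 0.0551, 0.07 and 0.0569, so this call needs each of these 4 arrays. SafLD was the tightest of the light groups, at 6.81, 6.90 and 6.99, against 6.12, 6.09 and 6.07 in saffron. That difference of 0.80 ± 0.32 (1.74-fold) did not pass (adjusted p = 0.229). With only the saffron and SafLD arrays fitted its adjusted p was 0.0177, still under 2-fold. The methods' t-test gave it an unadjusted p of 0.000117, and 0.115 after adjustment. PBMLD was the widest, at 5.55, 7.20 and 6.84, and its first array lay below all 3 PBM arrays (5.71, 5.76 and 5.66). The PBMLD difference from PBM was 0.82 ± 0.32 (adjusted p = 0.476), and without PBMLD 1 it was 1.31 (adjusted p = 0.0176, past both limits).

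Rela, which encodes p65, the strongest activating subunit, moved less. It measured 8.29, 8.39 and 8.19 in control and 8.67, 8.97 and 8.75 in LD, again with no overlap. The difference was 0.51 ± 0.17 and did not pass (adjusted p = 0.252). PBM alone lay at 7.89, 7.87 and 7.75, below every control array. PBMLD, at 8.07, 8.87 and 8.62, was 0.69 ± 0.17 above PBM (adjusted p = 0.138), and SafLD, at 8.32, 8.65 and 8.49, was 0.38 ± 0.17 above saffron (8.17, 7.86 and 8.29; adjusted p = 0.317). All 3 light groups thus lay wholly above their own unexposed group for Rela without passing the test. Taken 1 comparison at a time, 7.54% (LD), 7.17% (PBMLD) and 10.7% (SafLD) of all probe sets did so.

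Nfkbia encodes IkappaB-alpha, the inhibitor that NF-kB itself induces. It measured 10.12, 10.06 and 10.17 in control and 10.15, 10.51 and 10.69 in LD, and LD 1 fell within the control range. The difference of 0.33 ± 0.14 did not pass (adjusted p = 0.432). The lowest group was PBM, at 9.69, 9.68 and 9.77, wholly below control, with a difference of -0.41 ± 0.14 (adjusted p = 0.344). PBMLD, at 9.72, 10.10 and 10.02, lay wholly below LD by -0.51 ± 0.14 (95% interval -0.80 to -0.21), and this did not pass either (adjusted p = 0.16). Saffron (9.97, 10.29 and 10.03) and SafLD (10.18, 10.08 and 10.20) overlapped and differed by 0.05 ± 0.14 (adjusted p = 0.901).

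Nfkbiz encodes IkappaB-zeta, a nuclear protein of the inhibitor family that helps switch on secondary NF-kB targets. It measured 6.06, 6.09 and 5.83 in control and 6.75, 7.22 and 7.46 in LD, with no overlap. Nfkbiz rose by 1.15 ± 0.19 (95% interval 0.74 to 1.56, 2.22-fold, adjusted p = 0.00459). Without LD 3 the difference was 0.99, just under 2-fold, with an adjusted p of 0.0385. In SafLD it measured 6.71, 6.78 and 7.14 against 6.29, 6.36 and 6.08 in saffron, and in PBMLD 6.31, 6.94 and 6.53 against 5.84, 6.21 and 5.79 in PBM. Both light groups lay wholly above their unexposed group, with differences of 0.63 ± 0.19 (adjusted p = 0.103) and 0.65 ± 0.19 (adjusted p = 0.251) that did not pass.

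Bcl3, a nuclear relative of the inhibitors that binds p50 and p52, had the narrowest range of the 8 members' group means. It measured 5.64, 5.56 and 5.66 in control, and all 9 light-exposed arrays lay between 5.89 and 6.25. LD (5.91, 5.89 and 6.25) exceeded control by 0.40 ± 0.13 with no overlap (adjusted p = 0.222). PBM without bright light (5.73, 6.02 and 5.86) also lay above every control array, by 0.25 ± 0.13 (adjusted p = 0.547). PBMLD was at 6.03, 6.04 and 5.92, SafLD at 6.10, 5.92 and 6.06 and saffron at 5.98, 5.80 and 5.57. Neither light response was past the limits, with differences of 0.12 (adjusted p = 0.892) and 0.24 (adjusted p = 0.406).

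Icam1, which encodes the ligand of the leukocyte integrins LFA-1 and Mac-1, had the largest difference in LD of the 8. It measured 6.01, 6.32 and 6.37 in control, 6.50, 6.02 and 6.47 in saffron and 6.31, 6.25 and 6.45 in PBM. It measured 8.02, 9.06 and 8.79 in LD, 7.58, 7.93 and 8.46 in SafLD and 6.62, 7.80 and 7.33 in PBMLD. Each of the 9 light-exposed arrays was above each of the 9 unexposed arrays. The share of all probe sets with such a separation is not given here. In LD the rise was 2.39 ± 0.29 (95% interval 1.78 to 3.00, 5.25-fold, adjusted p = 0.000259), and it passed with any of the 6 arrays left out. In SafLD it was 1.66 ± 0.29 over saffron (95% interval 1.05 to 2.26, 3.15-fold, adjusted p = 0.00413), and it also passed with any of the 6 arrays left out. In PBMLD it was 0.92 ± 0.29 over PBM (95% interval 0.31 to 1.52, 1.89-fold) and did not pass (adjusted p = 0.297), although the groups did not overlap.

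Vcam1, which encodes the ligand of the integrin VLA-4, did not follow Icam1. It measured 8.91, 8.76 and 9.21 in control and 8.87, 9.48 and 10.25 in LD, a spread that took in the control level at its lower end. The difference of 0.57 ± 0.33 (95% interval -0.12 to 1.26) did not pass (adjusted p = 0.627). SafLD (9.76, 9.16 and 8.90) overlapped saffron (8.85, 9.30 and 9.23), and PBMLD (7.66, 8.37 and 9.05) overlapped PBM (8.33, 8.49 and 8.57). Those differences were 0.15 (95% interval -0.54 to 0.84) and -0.10 (95% interval -0.79 to 0.59). For Vcam1 the break in the order of the groups fell elsewhere, since PBMLD and PBM had the lowest means (8.36 and 8.46) and every PBM array lay below every control array.

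**Figure D2:**
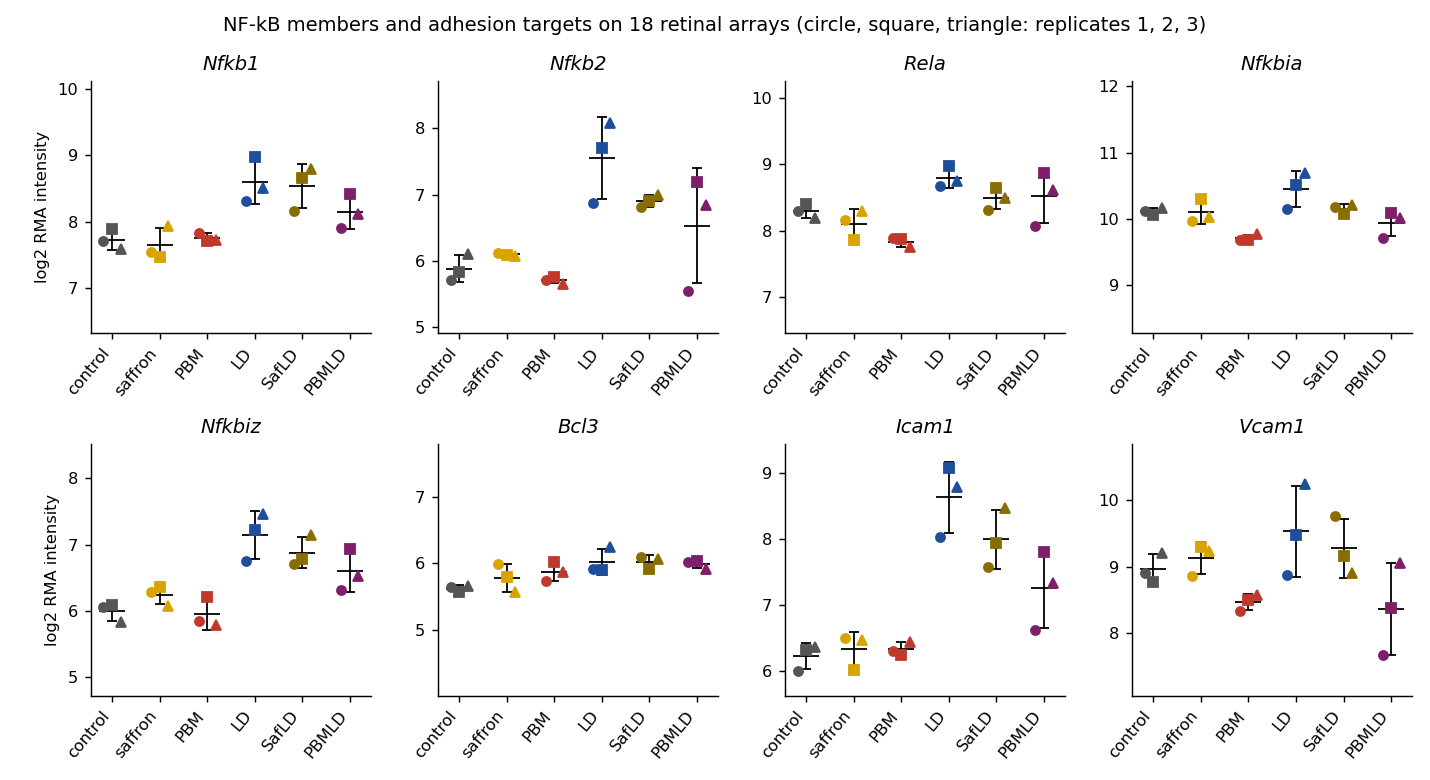
Log2 RMA intensity of the 8 measured members in each of the 18 arrays, 1 panel per gene, by group; symbols are replicates 1, 2 and 3, horizontal bars the group means and vertical bars the SD, and every panel covers the same length of scale. Icam1 separates the arrays with bright light (6.62 to 9.06) from those without (6.01 to 6.50), whereas Vcam1 in LD spans 8.87 to 10.25 and overlaps control.

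Over the 8 measured members, 3 passed for LD against control, where 0.466% of all probe sets passed as higher. For PBMLD against PBM none passed, where 0.106% of probe sets did, and 4 of the 8 had an unadjusted limma p under 0.05, as did 8.12% of all probe sets. For SafLD against saffron 1 passed, where 0.4% did. No gene of the members passed as higher in all 3 of these comparisons, which 0.0822% of probe sets did. Every array of the light-exposed group lay above every array of its unexposed group for 6 members in LD, 4 in PBMLD and 5 in SafLD, and for 7.54%, 7.17% and 10.7% of all probe sets. The 8 members had a median difference of 0.72 for LD, 0.52 for PBMLD and 0.51 for SafLD, against -0.02, 0.00 and 0.01 for all probe sets. These 3 comparisons share no arrays.

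**Figure D3:**
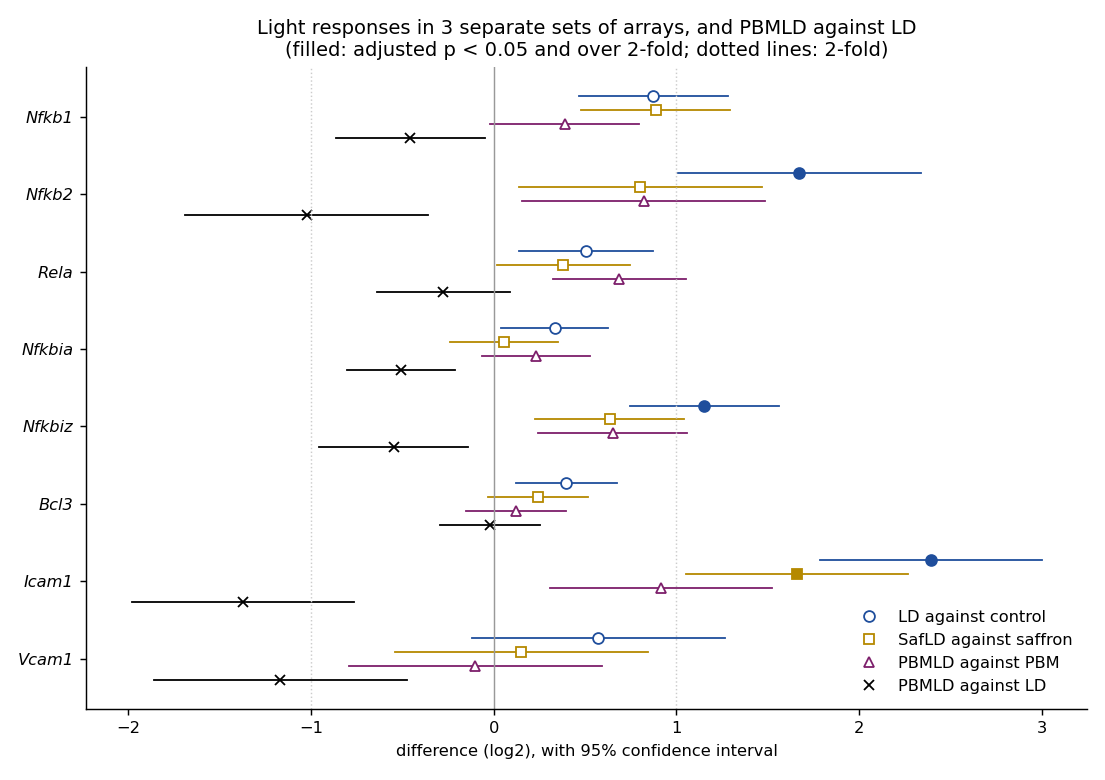
Difference in log2 intensity for the 8 members between each light-exposed group and its own unexposed group, and between PBMLD and LD (crosses), with 95% intervals from the limma fit; filled symbols passed both limits. Icam1 stood 2.39 higher with LD, 1.66 with SafLD and 0.92 with PBMLD, and for Vcam1 the intervals of all 3 light responses included 0.

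Set against the untreated control, the pretreated light groups held fewer members past the limits than LD. In SafLD 1 of the 8 passed as higher (0.548% of all probe sets): Icam1 rose by 1.76 ± 0.29 (3.38-fold, adjusted p = 0.0028), with each of the 6 arrays left out as well. Nfkb1 (0.81, adjusted p = 0.0329) and Nfkbiz (0.89, adjusted p = 0.0192) had adjusted p-values under 0.05 with changes under 2-fold. Nfkb2 had a 2.02-fold difference that did not reach the adjusted p (0.0993). In PBMLD none of the 8 passed as higher (0.157% of all probe sets), and 4 had an unadjusted p under 0.05, as did 12% of all probe sets. Icam1 was 2.03-fold above control with an adjusted p of 0.132, and without PBMLD 1 Icam1 (1.33, adjusted p = 0.0326) and Nfkb2 (1.14, adjusted p = 0.0331) both passed. LD, SafLD and PBMLD against control use the same 3 control arrays.

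The light-exposed groups were also compared directly with each other. All 8 members had a lower mean in PBMLD than in LD, with a median difference of -0.53 against 0.04 for all probe sets, and 6 had an unadjusted p under 0.05, as did 11.5% of all probe sets. None passed (0.216% of all probe sets did, in either direction), and Icam1 and Nfkbia were the only 2 members with every PBMLD array below every LD array, which held for 4.41% of all probe sets. Icam1 was lower by 2.59-fold, a difference of -1.37 ± 0.29 (95% interval -1.98 to -0.77), and missed the limit at an adjusted p of 0.058. That adjusted p ran from 0.00915 without LD 1 (-1.68) to 0.186 without LD 2, and was 0.015 without PBMLD 2. It was also under 0.05 with 3 other settings of the fit given in the closing section, and 0.474 with the LD and PBMLD arrays fitted alone. Vcam1 differed by -1.17 ± 0.33 (adjusted p = 0.171, and 0.0493 without LD 1), Nfkb2 by -1.02 ± 0.32 (adjusted p = 0.226) and Nfkb1 by -0.46 ± 0.19 (adjusted p = 0.375). The Nfkb2 difference was -0.53 without PBMLD 1 and the Nfkb1 difference -0.27 without LD 2. With arrays weighted by how closely they followed their group, the Vcam1 difference was -0.59 (adjusted p = 0.392). Bcl3 differed by -0.02, with a 95% interval of -0.30 to 0.25.

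Between SafLD and LD none of the 8 passed (0.257% of all probe sets did), and the median difference was -0.28 against 0.03 for all probe sets. Icam1 differed by -0.63 ± 0.29 (95% interval -1.24 to -0.03, adjusted p = 0.498). Nfkb1 differed by -0.06 (adjusted p = 0.951) and Bcl3 by 0.01 (adjusted p = 0.994). Rela was the only member with every SafLD array below every LD array (-0.31, adjusted p = 0.593), which held for 6.5% of all probe sets. Both comparisons with LD use the same 3 LD arrays.

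Neither pretreatment alone moved a member past the limits. For PBM against control 0.133% of all probe sets passed, none of the 8 members did, and 2 members (Rela and Nfkbia) had an unadjusted p under 0.05, as did 9.96% of all probe sets. Rela (-0.46 ± 0.17, adjusted p = 0.39), Nfkbia and Vcam1 (-0.50 ± 0.33, adjusted p = 0.649) were wholly lower in PBM, as were 11.4% of all probe sets, and Bcl3 was wholly higher, as were 11.8%. For saffron against control the limma test with Benjamini-Hochberg adjustment passed 0% of probe sets, while 4.6% had an unadjusted p under 0.05. None of the members did, none passed the methods' t-test, and their differences ran from -0.19 to 0.25. Whether the response to light itself differed with pretreatment was tested as the difference between the light responses. With PBM, 0.00685% of all probe sets passed that test and no member did. The Icam1 response was smaller by 1.48 in PBM-treated retinas, that is -1.48 ± 0.41, with an unadjusted limma p of 0.00208 and an adjusted p of 0.999, and 4.26% of all probe sets had an unadjusted p under 0.05. With saffron, 0.14% of probe sets passed and no member did, with adjusted p-values from 0.859 to 0.996 and an Icam1 value of -0.74.

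The arrays of a group did not respond evenly. Taking each member's difference from its control mean, the median over the 8 members was 0.48, 0.95 and 1.04 in the 3 LD arrays, 0.60, 0.57 and 0.75 in the SafLD arrays and -0.02, 0.63 and 0.36 in the PBMLD arrays. In PBM it was -0.16, -0.07 and -0.21 and in saffron 0.07, 0.18 and 0.14. LD 1 was the lowest LD array for 7 of the 8 members, and PBMLD 1 the lowest PBMLD array for 7. PBMLD 2 was the highest of its group for 7. PBMLD 1 had 4 members above the highest control array, against 6 in each of the other two PBMLD arrays and 6, 8 and 8 in the LD arrays. All members of an array were read from the same retina, so these counts are not independent observations. The same counts over all probe sets are not given here.

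**Figure D4:**
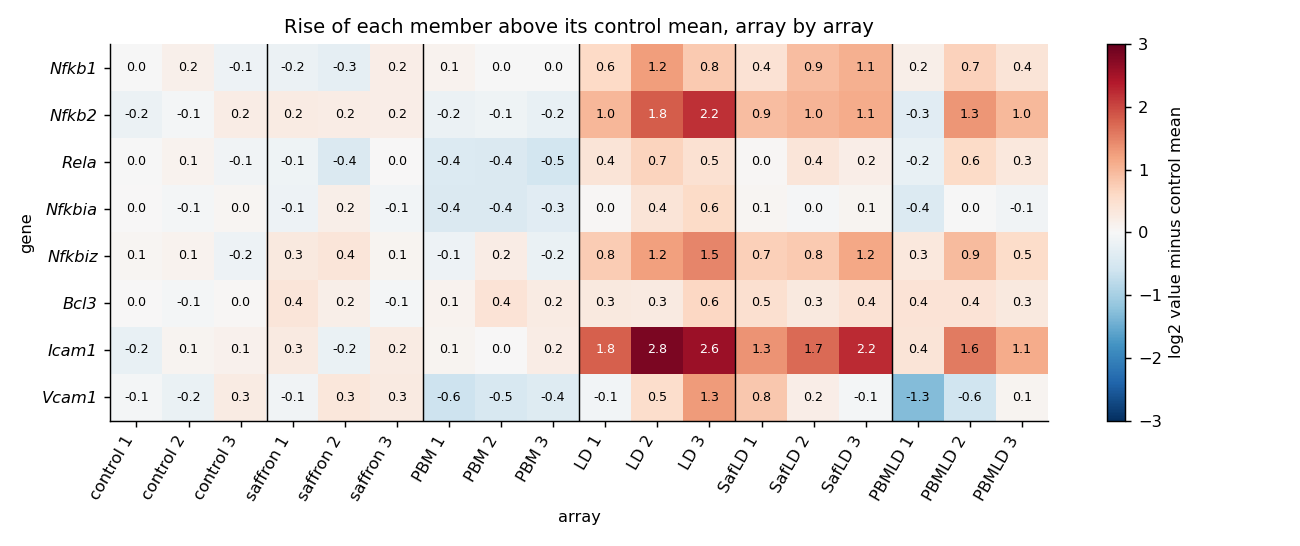
Difference of each array from the control mean in log2 intensity, with the 8 members as rows, the 18 arrays as columns and red for values above control. Icam1 and Nfkb2 carry the largest differences in each LD column, and the PBMLD 1 column has a median of -0.02 over the members against 0.63 and 0.36 in the other two PBMLD columns.

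The order of group means was alike for several members in its upper part. Icam1 ran from control (6.23), saffron (6.33) and PBM (6.33) to PBMLD (7.25), SafLD (7.99) and LD (8.62), and Nfkb1 from saffron (7.65), control (7.73) and PBM (7.75) to PBMLD (8.14), SafLD (8.54) and LD (8.60). In both genes the only neighbours in the order whose arrays did not overlap were PBM and PBMLD, the step from unexposed to exposed. Nfkb2 (5.71 in PBM to 7.55 in LD) and Nfkbiz (5.94 in PBM to 7.14 in LD) had the order PBM, control, saffron, PBMLD, SafLD, LD, and each neighbouring pair overlapped. LD had the highest mean for 7 of the 8 members. For Bcl3, SafLD was the highest by 0.01, with both means at 6.02 after rounding. Among the 14498 genes compared over the 18 arrays, the genes closest to Icam1 in deviation from their own control mean were Irf9, Fosl1 and Junb (root mean square differences of 0.27, 0.28 and 0.29). The closest to Nfkb2 were Birc3, Pdpn and Ier3 (0.24, 0.26 and 0.26) and the closest to Nfkbiz were Ripk1, Sbno2 and Speg (0.19, 0.20 and 0.21).

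Other genes of the pathway were taken from lists of 94 genes in all, of which 78 were measured. In LD against control 8 of the 78 rose, where 0.466% of all probe sets passed as higher, and none fell. The median difference of the 78 was 0.22, against -0.02 for all probe sets. Among ligands and receptors none of the 19 measured passed. The cytokine genes Tnf (0.96 ± 0.18, adjusted p = 0.0124, under 2-fold), Il1b (1.22 ± 0.30, adjusted p = 0.0623) and Il1a (0.75 ± 0.30, adjusted p = 0.396) were higher on average, as was the TNF receptor gene Tnfrsf1a (1.22 ± 0.36, adjusted p = 0.147). Among adaptors and kinases 1 of 21 rose, Myd88, the adaptor of Toll-like and interleukin-1 receptors (1.27 ± 0.25, adjusted p = 0.015). The kinase complex genes Chuk (0.24), Ikbkb (-0.06) and Ikbkg (0.11) did not pass, with adjusted p-values of 0.634, 0.932 and 0.905. Of 2 other measured subunits and inhibitors Nfkbie, encoding IkappaB-epsilon, rose by 1.05 ± 0.21 (2.08-fold, adjusted p = 0.0183), and Nfkbib, encoding IkappaB-beta, differed by 0.01 (adjusted p = 0.997).

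Of the genes listed for feedback and deubiquitination, 2 of 15 rose in LD. Tnip2, encoding a binding partner of the deubiquitinase A20, rose by 1.67 ± 0.18 (3.19-fold, adjusted p = 0.000102), and Birc3, encoding the ubiquitin ligase cIAP2, by 1.52 ± 0.28 (2.87-fold, adjusted p = 0.00926). Tnip2 was the only one of the 78 pathway genes to rise in all 3 light responses, which 0.0822% of all probe sets did. It rose by 1.97 in SafLD over saffron (3.91-fold, adjusted p = 7.57e-06) and by 1.01 in PBMLD over PBM (2.01-fold, adjusted p = 0.0196). The LD and SafLD calls held with each of their 6 arrays left out, and the PBMLD call held in 1 of the 6. Tnip1, of the same list, differed by -0.89 in SafLD over saffron (adjusted p = 0.0111, under 2-fold). Its difference was -0.49 in LD (adjusted p = 0.288) and -0.04 in PBMLD over PBM (adjusted p = 0.983).

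Among partners of adhesion 4 of 21 rose in LD, with a median difference of 0.29. Sele (1.40 ± 0.26, adjusted p = 0.0112) and Selp (1.35 ± 0.27, adjusted p = 0.0176) encode the endothelial selectins on which leukocytes roll. Cd44, encoding a hyaluronan receptor, rose by 1.28 ± 0.20 (2.42-fold, adjusted p = 0.00257) and Msn, encoding the membrane linker moesin, by 1.06 ± 0.22 (2.08-fold, adjusted p = 0.0218). Sele rose in SafLD too (1.17 over saffron, 2.25-fold, adjusted p = 0.0248), but passed in 1 of the 6 fits with an array left out, with adjusted p-values up to 0.163. The leukocyte integrin genes that pair with Icam1 and Vcam1 did not pass: Itgal differed by 0.28 (adjusted p = 0.518), Itgam by 0.37 (adjusted p = 0.248), Itgb2 by 0.29 (adjusted p = 0.635) and Itga4 by 0.18 (adjusted p = 0.819). Apart from Tnip2, each of the 8 LD calls was lost without at least 1 array: Cd44 without LD 3 alone, Birc3 and Sele without any of 3 arrays, and Nfkbie, Myd88, Selp and Msn without at least 4 of the 6.

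**Figure D5:**
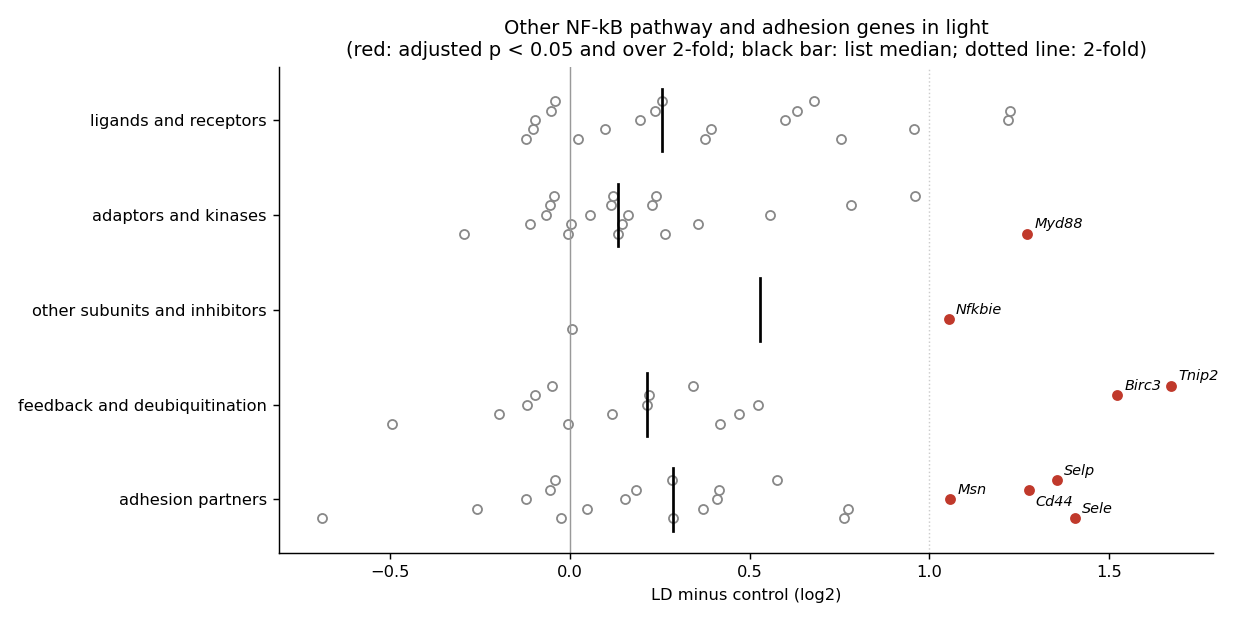
Difference in log2 intensity between LD and control for the 78 measured pathway genes other than the members, grouped by list, with one point per gene and a black bar at each list's median. The 8 red, named points passed both limits, and all are above 0.

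Markers of other cell types were measured on the same arrays. Of 10 microglia and macrophage markers measured, none rose in LD and P2ry12, a marker of resting microglia, fell by 1.04 on the log2 scale (adjusted p = 0.0419). The rest did not pass. Ptprc (0.68), Cd68 (0.57), Itgam (0.37) and Emr1 (0.35) were higher on average. Cx3cr1 (-0.35), Csf1r (-0.19), Tmem119 (-0.10), Tyrobp (-0.03) and Aif1 (-0.002) were lower. Their mean level was 5.47 to 5.55 in control and 5.40 to 5.64 in LD. None of 5 neutrophil markers passed, at a mean level of 4.02 to 4.17 in control and 3.97 to 4.29 in LD. None of 7 endothelial markers passed, and their mean level was lower in LD (6.65 to 6.93) than in control (7.07 to 7.21). Photoreceptor markers identified the tissue, with mean levels of 12.8 to 13.0 in control and 12.3 to 12.7 in LD. Lens markers varied between retinas, at 12.67, 10.41 and 12.53 in LD against 10.65, 10.54 and 10.90 in control. Of 5 pigment epithelium markers none passed. Ttr (9.17 in LD and 7.67 in control, adjusted p = 0.502), Rpe65 (5.50 and 4.57, adjusted p = 0.622) and Tyr (4.81 and 4.37, adjusted p = 0.919) were higher on average. Mitf (6.40 and 6.44) and Best1 (4.82 and 4.96) were lower. The mean level of the 5 was 5.70 to 6.45 in LD and 5.19 to 6.08 in control. None of 5 Müller cell markers passed, at 9.87 to 10.30 in LD and 9.93 to 10.26 in control. Of 3 astrocyte markers 1 rose in each of the 3 light responses. In LD this was Gfap, which Müller cells also make when the retina is injured, with a difference of 3.27 (adjusted p = 7.25e-06). The other astrocyte markers, Pax2 (-0.33, adjusted p = 0.259) and S100b (-0.36, adjusted p = 0.683), were lower on average in LD and did not pass. Between PBMLD and LD, pigment epithelium markers had a median difference of -0.63 (from -1.99 to 0.003) and lens markers of -0.55. For PBM against control these medians were -0.43 and -0.11. Lens markers had a median of 0.93 for saffron against control and of -0.66 for SafLD against saffron. None of these lens or pigment epithelium markers passed in those comparisons. The part of the cell types and tissues named here in the members' differences was not tested.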

How the data were processed

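Retinal RNA of 18 rats was hybridised to 18 Affymetrix rat gene arrays, 3 per group, and animals were separate. The limma p-values and SEs measure the spread between animals within groups, pooled over all 6 groups and drawn towards that of other probe sets. They do not measure the spread of the compared groups alone. The deposited values are log2 intensities that the authors summarised per probe set and normalized by RMA in Affymetrix Expression Console 1.1.2800.19935, per the labels. The values ran from 1.37 to 14.0 and array medians from 6.12 to 6.19. They were used as deposited, since a second normalization was not needed. RMA pulls probes to a shared distribution, so a shift common to most genes would not be seen. The number of arrays, not a read depth, limits the precision. Of 29214 probe sets, 15310 carried 1 gene symbol, 323 several and 13581 none. A symbol with several probe sets was read from the brightest, and each member had 1. The sources used here do not give a genome build for the array annotation, and promoters and coordinates are from RefSeq GRCr8.

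limma 3.58.1 in R 4.3.3 (lmFit and eBayes, 6 group means, all 18 arrays, 12 residual degrees of freedom) gave each of the 11 comparisons, with Benjamini-Hochberg adjustment over 29214 probe sets, an adjusted p limit of 0.05 and a 2-fold limit. The script was tested on simulated data. Alternatives were each array left out in turn, the groups compared fitted alone, median centring, quantile or cyclic loess normalization, dim probe sets left out, array weights (statmod 1.5.0), a variance trend with a robust fit, no fold limit, a mean over probe sets, a block for replicate number and the methods' t-test at its own threshold and after adjustment. Replicate numbers did not pair the arrays. The members and the gene and marker lists were chosen with earlier results of these data known. Genes named outside the members are pathway genes that passed in a light response, and the largest differences of a list in which none passed. The 3 genes closest to each member that passed in LD were named too. The kinase complex, Nfkbib, Tnip1, the integrins and the single markers were named after their values were seen.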

Additional observations from a re-analysis of the deposited data

How the results depend on the processing

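All values here count the 8 measured members that passed. The share of all probe sets that passed is given above for the main fit only. A count that changes with the setting is therefore not a result about the members. For LD against control 3 passed, 0 with the methods' t-test after adjustment, and between 1 (without LD 3) and 4 (without LD 1) with single arrays left out. With array weights 2 passed, since Nfkbiz was then 0.96. For SafLD against saffron 1 passed, 0 with the adjusted t-test, 2 with no fold limit and 1 to 2 with single arrays left out (2 without SafLD 1 or saffron 3, with Nfkb1). For PBMLD against PBM the range over left-out arrays was 0 to 1 (Nfkb2 without PBMLD 1). For SafLD against control 1 passed in all 6 fits without an array, 0 with the adjusted t-test, 2 with the unadjusted t-test, with the groups fitted alone or with array weights, and 3 with no fold limit. For PBMLD against control 0 passed, 1 with the unadjusted t-test and 0 to 2 with single arrays left out (2 without PBMLD 1). For PBMLD against LD 0 passed, and 1 (Icam1 each time) with the unadjusted t-test, with median centring (adjusted p = 0.0456) or with dim probe sets left out (adjusted p = 0.0492), and 0 to 2 with single arrays left out (2, Icam1 and Vcam1, without LD 1). With the replicate number as a block it was also 1 (adjusted p = 0.0292). That block is not a pairing of animals, and of 45 pairs of same-numbered arrays 10 had deviations correlated above 0.1. No member passed in the other comparisons under any alternative that could be computed, and the t-test gave no value for the differences between light responses. No direction reversed for a value that passed. The cause of these shifts was not tested.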
